A study of Homo sapiens with 4 samples.

Results

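The miR-29 family is represented by 3 guide strands, hsa-miR-29a, hsa-miR-29b and hsa-miR-29c, which were taken by name from the 1733 miRNAs counted in each library. Small RNA was sequenced from 2 human hepatoma lines, Huh7 and Hep3B, as the HCC cells, and from stem-like cells cultured out of each, called Hep3B-C and Huh7-C (HCSCs). Each of the 4 conditions has 1 library, so there are no replicates. The labels name no treatment, time or genetic change, and each HCSC population comes from 1 parent line. The family was chosen by measured values of these libraries. Hsa-miR-29c met the study's threshold for lower levels in both HCSCs with counts scaled to total reads, and hsa-miR-29a was the only miRNA called lower in HCSCs by DESeq2 over both lines, so the values of HCSCs against HCC cells are given as a description. The calls behind the choice are printed for what they are, and nothing is read from them.

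MiRNAs are cut in 2 steps, by Drosha and Dicer, from a hairpin transcript into a short duplex. The guide strand is retained by Argonaute and pairs with messenger RNAs through its seed (bases 2 to 8), while the other strand, the passenger (marked with *), is mostly degraded. The miR-29 family is known for repressing collagens and other matrix genes, the DNA methyltransferases DNMT3A and DNMT3B, and the survival factor MCL1. In liver it is known as an antifibrotic miRNA family, and MYC, NF-kB and TGF-beta signalling are known to lower its transcription.

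The mature guides are shown because they share a seed and differ in few other bases, which bears on how reads can be told apart. Sequences are those of RefSeq (GRCh38.p14), where all 3 guides and all 4 passengers were matched by hairpin and arm, and capitals mark the seed.
hsa-miR-29a: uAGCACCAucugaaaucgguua
hsa-miR-29b: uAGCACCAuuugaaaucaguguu
hsa-miR-29c: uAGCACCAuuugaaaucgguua
Counted from 1 at the 5′ end, hsa-miR-29a and hsa-miR-29c differ by 1 substitution, C10U. Hsa-miR-29c and hsa-miR-29b differ by 3 substitutions (G18A, U21G and A22U), and hsa-miR-29b is 1 base longer (23 against 22). Of the 2370 mature miRNAs in the table, 3 have the seed AGCACCA, and these are the 3 members. Hsa-miR-29b ends in AGUGUU, a hexamer known to direct this miRNA to the nucleus, which 0.549% of the mature miRNAs hold (13 of 2370, searched on the mature strand only) and the other members lack.

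The hairpins are shown because 2 of them give the same hsa-miR-29b, so that for this member only the passengers tell the loci apart. Capitals mark the guide.
MIR29A: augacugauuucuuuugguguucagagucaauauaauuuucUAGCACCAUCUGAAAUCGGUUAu
MIR29B1: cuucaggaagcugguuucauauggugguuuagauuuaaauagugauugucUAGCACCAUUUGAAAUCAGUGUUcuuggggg
MIR29B2: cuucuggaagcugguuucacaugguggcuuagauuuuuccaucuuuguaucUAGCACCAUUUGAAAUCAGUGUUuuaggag
MIR29C: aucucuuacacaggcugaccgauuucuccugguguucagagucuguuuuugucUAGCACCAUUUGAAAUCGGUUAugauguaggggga
On GRCh38, MIR29A (chr7:130876747-130876810) and MIR29B1 (chr7:130877459-130877539) lie 648 bases apart on the minus strand. GENCODE release 29 places MIR29B1 in an exon of the long non-coding RNA LINC-PINT, whose annotated 3′ end shares 2 bases with MIR29A, and places both hairpins in introns of AC016831.6 and, on the opposite strand, of LINC00513. MIR29C (chr1:207801852-207801939) and MIR29B2 (chr1:207802443-207802523) lie 503 bases apart, also on the minus strand, within an exon of their host transcript MIR29B2CHG. The counts hold no positions, and the authors mapped to an older build.

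The libraries held between 1739278 (Hep3B) and 5741567 (Huh7) miRNA counts. These counts were 10.4% of all reads in Hep3B and between 35.2% and 54.1% in the other libraries, and this share moves with each value per total reads given for Hep3B. TPM (the count in 1000000 total reads) gives 3 counts, the floor used here for detection, a level of 0.179 to 0.282 TPM. The hepatocyte miRNAs hsa-miR-122, hsa-miR-192, hsa-miR-194 and hsa-miR-885-5p summed to 11008 TPM in Hep3B and to between 35495 and 115636 TPM in the other libraries, with counts above the floor for all 4 except hsa-miR-885-5p in Huh7 (2 counts) and in Huh7-C (0 counts, which allows up to 0.280 TPM). Hsa-miR-122 stood at 23.7 TPM in Hep3B against 9708 TPM in Hep3B-C. The 6 blood cell miRNAs summed to at most 0.477 TPM except in Huh7, at 74.9 TPM. There, 773 of the counts were those of hsa-miR-451, while hsa-miR-144, hsa-miR-150 and hsa-miR-223 were at 0. The 5 miRNAs of fibroblasts and muscle summed to 25.7 and 113 TPM in Hep3B and Hep3B-C and to 6.12 and 5.51 TPM in Huh7 and Huh7-C, with 3 of them having any count in each library. Whether these differences take part in those of the miR-29 family was not tested. Intervals are 95% intervals and cover counting error only.

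Hsa-miR-29a was the most abundant member in every library, followed by hsa-miR-29b and hsa-miR-29c, and all 3 were highest in Huh7. Hsa-miR-29a had 1786 and 1023 counts in Hep3B and Hep3B-C, and 11462 and 1795 counts in Huh7 and Huh7-C, or 106, 66.3, 1079 and 168 TPM. Huh7 thus stood far above the other libraries, where the level of this member, the main carrier of the family's seed, varied less. In Huh7 it ranked 27 of the 712 miRNAs with any count, and in Hep3B-C 105 of 773. Exact Poisson intervals of its TPM did not overlap between any of the 4 libraries. The share of all miRNAs with such separate intervals was not computed, so nothing particular to this member is read from it.

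Hsa-miR-29b, the member made from both loci, had 219, 215, 1697 and 285 counts in Hep3B, Hep3B-C, Huh7 and Huh7-C, or 13.0, 13.9, 160 and 26.6 TPM. The Hep3B interval (11.4 to 14.9 TPM) overlapped that of Hep3B-C (12.1 to 15.9 TPM), and the Huh7-C and Huh7 levels lay above both. Hsa-miR-29c, made from MIR29C alone, had 100, 33, 96 and 42 counts in the same order, or 5.96, 2.14, 9.04 and 3.92 TPM. Its order was Huh7, Hep3B, Huh7-C and Hep3B-C, with intervals that overlapped between Huh7-C (2.83 to 5.30 TPM) and its neighbours Hep3B (4.85 to 7.25 TPM) and Hep3B-C (1.47 to 3.001 TPM).

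On the scale of miRNA counts the order of libraries differed. Of each 1000000 miRNA counts, hsa-miR-29a took 1027 and 188 in Hep3B and Hep3B-C, and 1996 and 444 in Huh7 and Huh7-C. Here both HCC libraries stood above both HCSC libraries. Hsa-miR-29b, at 126, 39.6, 296 and 70.5, and hsa-miR-29c, at 57.5, 6.08, 16.7 and 10.4, also had both HCC libraries above both HCSC libraries. This order is a description only, because the family was chosen by values of these libraries. The share of all miRNAs with the same order was not computed.

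**Figure D1:**
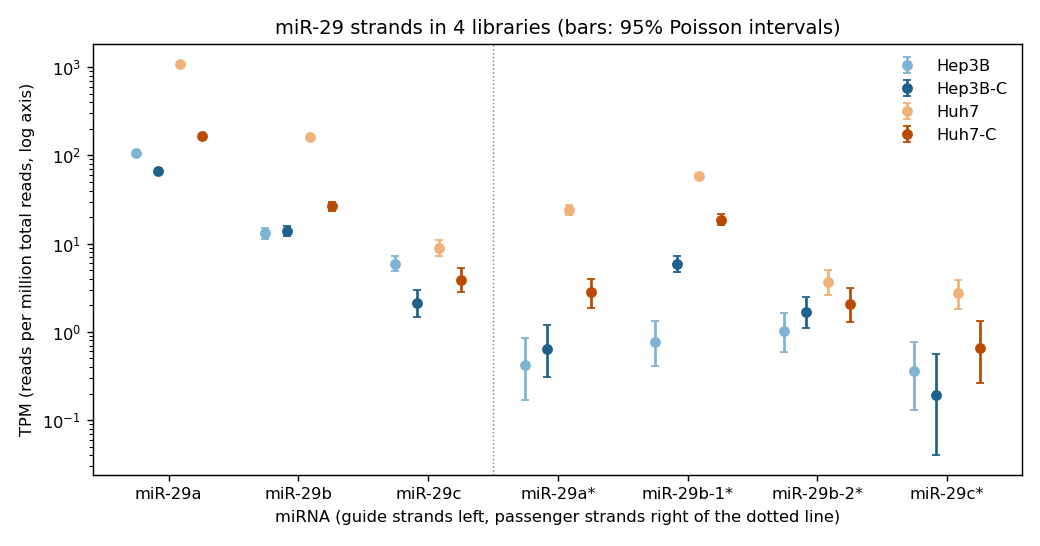
TPM (reads in 1000000 total reads, log axis) of the 3 miR-29 guide strands and 4 passenger strands in Hep3B, Hep3B-C, Huh7 and Huh7-C, 1 library each, with bars for exact 95% Poisson intervals. Hsa-miR-29a is the highest strand in each library, and Huh7 holds the highest level of all 7 strands.

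In the HCSCs, hsa-miR-29a and hsa-miR-29c stood lower than in the paired HCC cells in both lines, while hsa-miR-29b, with counts scaled to total reads, stood lower in the Huh7 pair and not in the Hep3B pair. In Hep3B-C hsa-miR-29a was at 62.3% of its HCC level (log2 fold-change -0.68, exact binomial interval -0.80 to -0.57). In Huh7-C it was at 15.5% of the Huh7 level (log2 fold-change -2.69, -2.76 to -2.62). On this scale the difference was larger in the Huh7 pair, but the order of the pairs turned with the library size. With total miRNA counts hsa-miR-29a stood at -2.45 for Hep3B-C and -2.17 for Huh7-C, and with TMM at -2.10 and -2.37. A difference between the pairs cannot be tested with 1 library per condition.

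The log2 fold-change of hsa-miR-29b was 0.09 between Hep3B-C and Hep3B (-0.18 to 0.37), an interval that holds 0. In the Huh7 pair it was -2.59 (-2.77 to -2.40), close to that of hsa-miR-29a. Hsa-miR-29c had log2 fold-changes of -1.48 (-2.09 to -0.90) and -1.21 (-1.76 to -0.67), so that its intervals in the 2 pairs overlapped with total reads. With total miRNA counts they lay apart, at -3.24 (-3.86 to -2.66) and -0.69 (-1.25 to -0.15), as they did with the other library sizes. The family sum was 2105 counts in Hep3B and 1271 in Hep3B-C, which gave -0.61 (-0.71 to -0.51) on the log2 scale. It was 13255 counts in Huh7 and 2122 in Huh7-C, which gave -2.66 (-2.72 to -2.59).

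The scale of these values depends on the library size. Among miRNAs that reached 10 counts in each library of a pair, the Hep3B pair (345 miRNAs) had a median log2 fold-change of 1.25 with total reads and -0.52 with total miRNA counts. The medians of the Huh7 pair (333 miRNAs) were -0.51 and 0.01. Relative to the median with total reads, hsa-miR-29a, hsa-miR-29b and hsa-miR-29c stood at -1.93, -1.15 and -2.73 (log2) in the Hep3B pair, and at -2.18, -2.08 and -0.70 in the Huh7 pair. All 3 members were thus below the median miRNA in both pairs. In the Hep3B pair 18, 50 and 9 of the 345 miRNAs had a lower log2 fold-change than hsa-miR-29a, hsa-miR-29b and hsa-miR-29c, and in the Huh7 pair 11, 14 and 73 of the 333 did. With total miRNA counts, TMM or DESeq2 size factors, or miRNA counts without the 5 most abundant miRNAs as library sizes, the 3 members were lower in the HCSCs of both pairs. Under these, hsa-miR-29a ranged from -2.45 to -1.86 and hsa-miR-29b from -1.67 to -1.09 in the Hep3B pair, and hsa-miR-29c from -0.89 to -0.63 in the Huh7 pair.

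**Figure D2:**
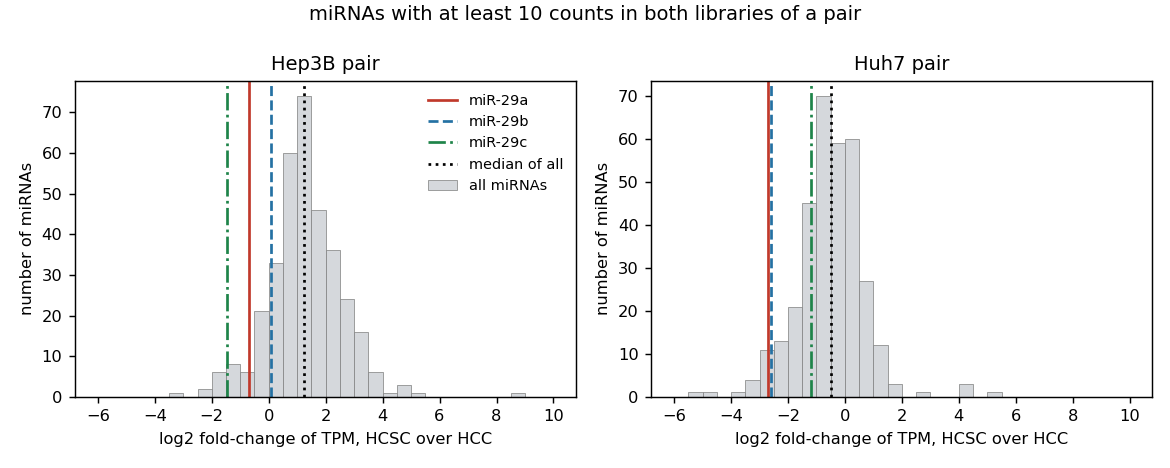
Number of miRNAs by log2 fold-change of TPM (HCSC over HCC) in each pair, for miRNAs that reached 10 counts in each library, with lines for the 3 members and a dotted line for the median of all. The members lie left of the median in both pairs, with hsa-miR-29a and hsa-miR-29b close together in the Huh7 pair and apart in the Hep3B pair.

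The study's rule asks for a 2-fold difference or more and an adjusted p no higher than 0.01 in an exact Poisson test, which compares 2 libraries and not conditions. By this rule 1 of the 3 members (hsa-miR-29c) was called down in the Hep3B pair, against 2.52% of the 834 miRNAs tested. In the Huh7 pair 3 of 3 were called down, against 17.1% of 772. The counts changed with the library size. With each of the other 4 library sizes 3 of 3 members were called down in the Hep3B pair, where 59 to 112 of all miRNAs were, and 2 of 3 in the Huh7 pair, where 71 to 90 were, with hsa-miR-29c under the 2-fold threshold. These shares are printed for scale only, because the family was chosen with them in view. Over both lines, with the parent line as a block, edgeR's quasi-likelihood test at an adjusted p of 0.05 called 0 of 443 miRNAs (0.0%) in HCSCs against HCC cells, with 31 at an unadjusted p under 0.05, and DESeq2 called 4 higher (0.903%) and 1 lower (0.226%), the latter being hsa-miR-29a.

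The make-up of the family is independent of the library size. Hsa-miR-29a made up between 80.5% (Hep3B-C) and 86.5% (Huh7) of the family's counts. Hsa-miR-29b made up 10.4% in Hep3B (Clopper-Pearson interval 9.13% to 11.8%) and 16.9% in Hep3B-C (14.9% to 19.1%), against 12.8% in Huh7 (12.2% to 13.4%) and 13.4% in its HCSCs (12.0% to 15.0%). Its share was therefore highest in Hep3B-C, with an interval that overlapped only that of Huh7-C, and by little. Hsa-miR-29c made up 4.75% in Hep3B (3.88% to 5.75%) and 2.60% in Hep3B-C (1.79% to 3.63%), against 0.724% in Huh7 (0.587% to 0.884%) and 1.98% in its HCSCs (1.43% to 2.67%). The Hep3B library held the largest share of hsa-miR-29c and the Huh7 library the smallest.

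The parent libraries Hep3B and Huh7 were compared by Fisher's exact test (2-sided), with Benjamini-Hochberg adjustment over 4 tests. This compares 2 libraries and not conditions. The choice of the family did not make this comparison, but it used the counts of both parent libraries. The tests on members are therefore not independent of that choice. The share of hsa-miR-29c differed the most of the 3 members, 4.75% in Hep3B against 0.724% in Huh7 (adjusted p = 2.02e-35, exact test). The share of hsa-miR-29b was 10.4% against 12.8% (adjusted p = 0.00236, exact test) and that of hsa-miR-29a 84.8% against 86.5% (adjusted p = 0.0481, exact test). Since a single base separates them, reads of hsa-miR-29a with a change at C10U would be counted as hsa-miR-29c. Per 100 reads of hsa-miR-29a there were 5.60 and 3.23 of hsa-miR-29c in Hep3B and Hep3B-C, and 0.838 and 2.34 in Huh7 and Huh7-C. The mismatches allowed are not given in the sources used here, and the part of misread hsa-miR-29a in these counts was not tested.

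The passengers, which the choice of members did not use, tell the hairpins apart. They are shown because those of the hairpins that give hsa-miR-29b differ in sequence, and capitals mark bases 2 to 8.
hsa-miR-29a*: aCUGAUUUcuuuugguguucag
hsa-miR-29b-1*: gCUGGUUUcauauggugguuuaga
hsa-miR-29b-2*: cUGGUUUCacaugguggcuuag
hsa-miR-29c*: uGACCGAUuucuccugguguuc
Hsa-miR-29b-1*, from MIR29B1 on chromosome 7, had 13 and 92 counts in Hep3B and Hep3B-C, and 623 and 201 counts in Huh7 and Huh7-C, or 0.775, 5.96, 58.7 and 18.8 TPM. It was lowest in Hep3B and differed in direction between the pairs. The log2 fold-changes of hsa-miR-29b-1* were 2.94 (interval 2.10 to 3.91) in the Hep3B pair and -1.64 (-1.88 to -1.41) in the Huh7 pair. In the Hep3B pair it was above 0 with every library size tried, from 1.18 to 1.76 with those other than total reads, although its guide hsa-miR-29b was not higher under any of those.

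Hsa-miR-29b-2*, from MIR29B2 on chromosome 1, had 17, 26, 39 and 22 counts in Hep3B, Hep3B-C, Huh7 and Huh7-C. The log2 fold-changes were 0.73 (-0.20 to 1.71) in the Hep3B pair and -0.84 (-1.66 to -0.05) in the Huh7 pair. Hsa-miR-29a* had 7, 10, 255 and 30 counts, with log2 fold-changes of 0.63 (-0.91 to 2.26) and -3.10 (-3.70 to -2.55). Hsa-miR-29c* had 6, 3, 29 and 7 counts, with log2 fold-changes of -0.88 (-3.51 to 1.35) and -2.06 (-3.50 to -0.84). In the Hep3B pair, these 3 passengers had intervals that hold 0 with total reads. With total miRNA counts the intervals of hsa-miR-29b-2* (-1.97 to -0.06) and hsa-miR-29c* (-5.27 to -0.42) lay below 0, so that the library size decides whether a difference shows at these counts. The study's rule called 1 of the 4 passengers (hsa-miR-29b-1*) up in the Hep3B pair, against 34.1% of the miRNAs tested, and 3 of 4 down in the Huh7 pair, against 17.1%, with hsa-miR-29b-2* the exception. With total miRNA counts 0 of 4 were called up in the Hep3B pair (5.64% of all miRNAs). In the Huh7 pair 2 of 4 (hsa-miR-29a* and hsa-miR-29b-1*) were then called down (9.59% of all). With TMM, DESeq2 size factors or miRNA counts without the 5 most abundant miRNAs, hsa-miR-29b-1* was called up in the Hep3B pair. In that order, the shares of all miRNAs called up were 8.51%, 11.5% and 8.39%. In the Huh7 pair 3, 2 and 2 of 4 were called down (11.7%, 9.20% and 9.97% of all).

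**Figure D3:**
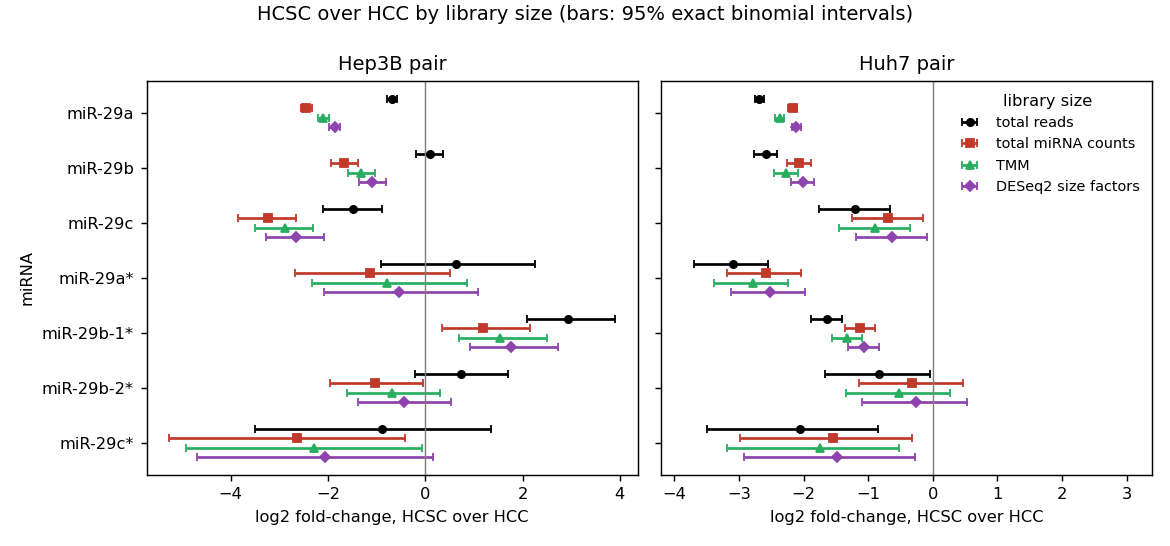
Log2 fold-change (HCSC over HCC) of the 7 miR-29 strands in the Hep3B and Huh7 pairs with 4 choices of library size, with bars for exact 95% binomial intervals. In the Hep3B pair the points from total reads lie to the right of the others, and hsa-miR-29b-1* is the strand above 0 with all 4.

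Reads of hsa-miR-29b-1* per 100 reads of hsa-miR-29b numbered 5.94 in Hep3B (interval 3.11 to 10.4) and 42.8 in Hep3B-C (33.1 to 54.9), against 36.7 in Huh7 (33.4 to 40.3) and 70.5 in its HCSCs (58.6 to 84.8). This ratio does not depend on the library size, and it was higher in the HCSCs of both pairs, 7.21-fold in Hep3B-C and 1.92-fold in Huh7-C. Hsa-miR-29b-2* numbered 7.76, 12.1, 2.30 and 7.72 per 100 reads of hsa-miR-29b in Hep3B, Hep3B-C, Huh7 and Huh7-C. Its intervals overlapped between Hep3B (4.44 to 12.7) and Hep3B-C (7.72 to 18.2) and lay apart between Huh7 (1.63 to 3.15) and Huh7-C (4.76 to 11.9). Hsa-miR-29a* ranged from 0.392 in Hep3B (0.157 to 0.809) to 2.22 in Huh7 (1.96 to 2.52) per 100 reads of hsa-miR-29a. Hsa-miR-29c*, on 3 to 29 counts, ranged from 6 in Hep3B (2.15 to 13.5) to 30.2 in Huh7 (19.2 to 46.2) per 100 reads of hsa-miR-29c. The intervals of the parent libraries thus lay apart for both, and the share of other passengers for which they do was not computed.

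For comparison, the same log2 change of the passenger-to-guide ratio was computed for all passengers whose 2 strands both reached 10 counts in each library of a pair. Its median was 0.04 over 49 passengers in the Hep3B pair and -0.36 over 55 in the Huh7 pair. For hsa-miR-29b-1* the change was 2.85 in the Hep3B pair, with 0 of the 49 higher, and 0.94 in the Huh7 pair, with 7 of the 55 higher. For hsa-miR-29b-2* it was 0.64, with 13 higher, and 1.75, with 1 higher. Hsa-miR-29a* had enough counts in the Huh7 pair only, where its change was -0.41, and hsa-miR-29c* in neither.

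**Figure D4:**
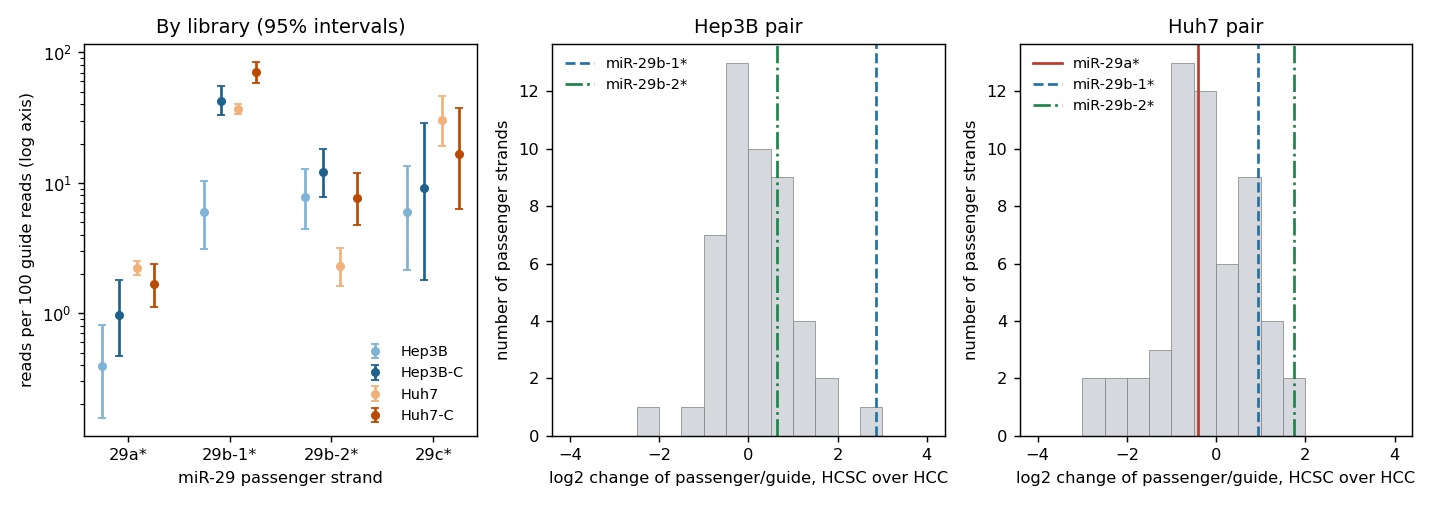
Left, passenger reads per 100 guide reads (log axis) for the 4 miR-29 passengers in each library, with 95% intervals. Middle and right, number of passengers by log2 change of the passenger-to-guide ratio (HCSC over HCC) in the Hep3B and Huh7 pairs, with lines for the miR-29 passengers that had at least 10 counts of both strands; hsa-miR-29b-1* lies at the right end in the Hep3B pair.

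Because each hsa-miR-29b passenger names its hairpin, the share of hsa-miR-29b-1* among both shows the balance of the loci in passenger reads. It was 43.3% in Hep3B (13 of 30 reads, interval 25.5% to 62.6%) and 78.0% in Hep3B-C (69.4% to 85.1%). In the Huh7 lines it was 94.1% (parent, 92.0% to 95.8%) and 90.1% (HCSCs, 85.4% to 93.7%). Hep3B stood apart as the library in which hsa-miR-29b passenger reads from the chromosome 7 hairpin were not the clear majority. Passengers are mostly degraded, so this balance need not be that of the guides. Between the parent libraries, 43.3% in Hep3B differed from 94.1% in Huh7 (adjusted p = 2.55e-12 by Fisher's exact test, over the same 4 tests).

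The Huh7 lines held more hsa-miR-29a and hsa-miR-29b than the Hep3B lines in TPM, but the difference did not pass the test over all miRNAs. Between parents, hsa-miR-29a was 10.1-fold and hsa-miR-29b 12.2-fold higher in Huh7 than in Hep3B, and between HCSCs they were 2.53-fold and 1.91-fold higher in Huh7-C than in Hep3B-C. The corresponding values of hsa-miR-29c were 1.52-fold and 1.83-fold. For hsa-miR-29a and hsa-miR-29b, the levels of the Huh7 lines (lowest 168 and 26.6 TPM) did not overlap those of the Hep3B lines (highest 106 and 13.9 TPM), whereas they overlapped for hsa-miR-29c. On the scale of miRNA counts, the levels of all 3 members overlapped. The share of all miRNAs whose levels separate the lines was not computed, so nothing particular to the members is read from this.

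To test the line difference, the 2 libraries of each line were compared by the quasi-likelihood method of edgeR, with TMM normalization, cell state as a block and 443 miRNAs that passed a filter of 10 counts in 2 libraries. It called 86 of them (19.4%) at an adjusted p of 0.05, but 0 of the 3 members and 0 of the 3 passengers tested, of which 2 and 2 had an unadjusted p under 0.05. Hsa-miR-29c* did not pass the filter. The log2 fold-change of the Huh7 lines over the Hep3B lines was 1.94 ± 0.53 (SE) for hsa-miR-29a (edgeR adjusted p = 0.0760), 1.88 ± 0.63 for hsa-miR-29b (adjusted p = 0.110) and 0.31 ± 0.68 for hsa-miR-29c (adjusted p = 0.751). Those of the passengers were 3.56 ± 0.76 for hsa-miR-29a* (edgeR adjusted p = 0.0507), 3.49 ± 1.03 for hsa-miR-29b-1* (adjusted p = 0.0901) and 0.67 ± 0.51 for hsa-miR-29b-2* (adjusted p = 0.373).

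DESeq2, which called 30.2% of the same miRNAs, called 2 of the 3 members, hsa-miR-29a (DESeq2 adjusted p = 0.00631) and hsa-miR-29b (adjusted p = 0.0477). It also called hsa-miR-29a* (DESeq2 adjusted p = 0.0256) and hsa-miR-29b-1* (adjusted p = 0.0113). Over all alternatives the adjusted p ranged from 0.00631 to 0.719 for hsa-miR-29a, from 0.0477 to 0.579 for hsa-miR-29b, from 0.00240 to 0.322 for hsa-miR-29a* and from 0.00445 to 0.369 for hsa-miR-29b-1*. Without the Huh7 library, the log2 fold-change of hsa-miR-29a was 0.59 and that of hsa-miR-29b 0.76. Hsa-miR-451, the blood cell miRNA noted above, was also highest in Huh7, and its part in these differences was not tested.

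The miRNAs with the pattern most like each member were found by the root mean square difference of mean-centred log2 TPM over the 4 libraries, among 260 other miRNAs that reached 10 counts in each. Hsa-miR-29b was the nearest of all miRNAs to hsa-miR-29a, at 0.279. Outside the family, hsa-miR-190 (0.295), hsa-miR-222* (0.394) and hsa-miR-590-5p (0.492) were nearest to hsa-miR-29a. Hsa-miR-190 stood at 1.97 and 1.49 TPM in Hep3B and Hep3B-C and at 32.2 and 5.04 TPM in Huh7 and Huh7-C, so that Huh7 was far above the rest, as for hsa-miR-29a. The same 3 were nearest to hsa-miR-29b, led by hsa-miR-222* (0.202). Hsa-miR-222* stood at 0.715 and 0.842 TPM in Hep3B and Hep3B-C and at 7.44 and 1.12 TPM in Huh7 and Huh7-C. Hsa-miR-590-5p stood at 0.596, 0.648, 4.05 and 0.933 TPM in the same order. Both lie near the filter of 10 counts in all libraries but Huh7, so counting error bears on their distances. Hsa-miR-29c was nearest to hsa-miR-181c (0.254), hsa-miR-221 (0.530) and hsa-miR-502-3p (0.557). Hsa-miR-181c stood at 5.24 and 1.81 TPM in the Hep3B lines and at 5.27 and 2.52 TPM in the Huh7 lines, with both parents near each other. Within the family, hsa-miR-29c stood at rank 42 for hsa-miR-29a and rank 73 for hsa-miR-29b. The passenger hsa-miR-29b-1* stood at rank 129 for hsa-miR-29a and rank 123 for its own guide. Hsa-miR-29b-2* stood nearer, at rank 47 for hsa-miR-29a and rank 47 for its own guide. The other passengers did not reach 10 counts in each library.

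Other miRNAs that share a known regulator or kind of target with the miR-29 family were taken from 3 lists. Of 24 other miRNAs reported as repressed by MYC, 23 were tested, and 9 were called up and 0 down in the Hep3B pair, against 34.1% and 2.52% of all miRNAs. In the Huh7 pair 0 were called up and 9 down, against 3.11% and 17.1%. The median log2 fold-change of this list, with 0.5 counts added, was 0.93 in the Hep3B pair (1.36 over all miRNAs) and -0.66 in the Huh7 pair (-0.65 over all). The calls in the Hep3B pair turned with the library size. With total miRNA counts 0 were called up and 8 down (5.64% and 13.4% of all miRNAs). TMM gave 1 up and 5 down (8.51% and 9.11% of all), and DESeq2 size factors 2 and 3 (11.5% and 7.07%). With miRNA counts without the 5 most abundant miRNAs these were 1 and 6 (8.39% and 9.71%). Hsa-miR-16, an inhibitor of cell cycle genes, had the largest increase in the Hep3B pair, with 1422 counts in Hep3B and 8258 in Hep3B-C (2.66 on the log2 scale, interval 2.58 to 2.74). Hsa-miR-34a, a target of p53, had the largest decrease in the Huh7 pair, from 292 to 24 counts (-3.62, interval -4.28 to -3.02). Both kept their direction with the other library sizes. In the Hep3B pair hsa-let-7g had the lowest value of this list, -0.35, and in the Huh7 pair hsa-let-7c the highest, 0.70, with no call for either. With the other library sizes these were -2.11 to -1.53 and 1.02 to 1.28, past the 2-fold threshold.

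Of the 6 other miRNAs that target DNA methyltransferases or EZH2, 4 were called up and 0 down in the Hep3B pair (34.1% and 2.52% of all miRNAs), but 0 up and 1 down when scaled to total miRNA counts (5.64% and 13.4% of all). For the Huh7 pair 2 were called up and 2 down (3.11% and 17.1% of all), or 2 up and 0 down with total miRNA counts (7.25% and 9.59% of all). Hsa-miR-152, which targets DNMT1, had 158 counts in Huh7 and 521 in Huh7-C (1.71 on the log2 scale, interval 1.45 to 1.97) and 514 and 541 counts in Hep3B and Hep3B-C (0.19 on the log2 scale, from -1.57 to -0.99 with the other library sizes). Hsa-miR-143, which also stands among the miRNAs of fibroblasts and muscle (25.4 and 110 TPM in Hep3B and Hep3B-C), had the highest value in the Hep3B pair, 2.12, and the lowest in the Huh7 pair, -1.36, from 33 to 13 counts. With the other library sizes it stood at 0.36 to 0.94 and at -1.04 to -0.78. Hsa-miR-26a stands in this list and in that of MYC.

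Of the 11 other miRNAs of TGF-beta signalling and fibrosis, 10 were tested in the Hep3B pair, with 4 called up and 1 down, and 9 in the Huh7 pair, with 0 up and 2 down. The shares of all miRNAs were 34.1% up and 2.52% down, and 3.11% and 17.1%, and 4 of 10 and 2 of 9 lie near them. With total miRNA counts these were 2 up and 2 down in the Hep3B pair (5.64% and 13.4% of all miRNAs). In the Huh7 pair they were 0 up and 1 down (7.25% and 9.59% of all). Hsa-miR-199a-3p, a miRNA of mesenchymal cells, had the largest decrease in both pairs, 165 counts in Hep3B against 64 in Hep3B-C (-1.25 on the log2 scale, interval -1.69 to -0.82) and 72 in Huh7 against 13 in Huh7-C (-2.48, interval -3.46 to -1.62). It stood lower in the HCSCs of both pairs with each library size, as hsa-miR-29a and hsa-miR-29c did. The epithelial miRNA hsa-miR-141 had the largest increase in the Hep3B pair, from 27 to 236 counts (3.25, interval 2.67 to 3.88). In the Huh7 pair the highest value was 0.23 for hsa-miR-200c, with no call.

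Between the lines, where 9.71% of the 443 miRNAs were called higher and 9.71% lower in the Huh7 lines by edgeR, 2 of the 23 tested miRNAs of the MYC list were higher and 4 lower. The 2 were hsa-miR-30c and hsa-miR-30e, and the 4 were hsa-let-7b, hsa-let-7c, hsa-let-7d and hsa-miR-146a. In the list of DNA methyltransferases and EZH2, 0 of 6 were higher and 1 lower (hsa-miR-143). In that of TGF-beta signalling and fibrosis, 2 of 8 were higher (hsa-miR-21 and hsa-miR-192) and 3 lower (hsa-miR-200a, hsa-miR-200b and hsa-miR-429). In HCSCs against HCC cells over both lines, edgeR called 0 miRNAs of each list.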

How the data were processed

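The authors sequenced small RNA on an Illumina Genome Analyzer II, removed contaminant and redundant reads and reads under 18 nt, mapped the rest with SOAP (version not given in the sources used here), set aside other small RNA classes and assigned reads to miRBase release 17. The deposited values are raw read counts per mature miRNA, not normalized. How 1 read was assigned among near-identical miRNAs is not given in the sources used here. TPM was computed from these counts and the total reads that the study gives per library.

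Groups came from the sample titles. Within a pair, miRNAs counted in either library entered the Audic-Claverie exact Poisson test, 2-sided, with a TPM of 0 set to 0.001. Its upper tail left out the observed count, which makes the p-values of increases smaller. Lines and cell states were compared by edgeR's quasi-likelihood test on the deposited counts (2 libraries against 2, the other factor as a block, 1 residual degree of freedom), with p-values adjusted by the Benjamini-Hochberg method. With 1 library per condition, the spread in these fits is how far the 2 pairs differ in their change, shared in part across miRNAs. It is not a spread between replicate cultures. The SE given for edgeR was computed from its test, as the absolute log2 fold-change over the square root of the F statistic. The p-values of the Poisson and Fisher tests cover counting error only. As pairs, the labels tie each HCSC library to its parent line. The members and lists were chosen with earlier results of these data known. Named were the members, their passengers, the 3 nearest miRNAs of each, the largest increase and decrease of each list among miRNAs reaching 10 counts in both, and miRNAs sharing the seed. List miRNAs called between lines were named after their values were seen. Alternatives were other library sizes, filters, tools, no block and leaving out each library. The scripts of both tests were first run on simulated counts. The software was Python 3.11.15, scipy 1.17.1, R 4.3.3, edgeR 4.0.16 and DESeq2 1.42.0.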

Additional observations from a re-analysis of the deposited data

Results flagged for a closer look

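The miR-29 strands below had log2 fold-changes of HCSC over HCC (TPM) of opposite sign in the Hep3B and Huh7 pairs. With 1 library per condition the difference between the pairs was not tested. Hsa-miR-29b had 0.094 and -2.59, the first with an interval that holds 0. Hsa-miR-29a* had 0.63 and -3.10, from 7 and 10 counts in the Hep3B pair. Hsa-miR-29b-1* had 2.94 and -1.64, and both intervals exclude 0. Hsa-miR-29b-2* had 0.73 and -0.84. With library sizes other than total reads, hsa-miR-29b, hsa-miR-29a* and hsa-miR-29b-2* were below 0 in both pairs, and hsa-miR-29b-1* still differed in sign.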

How the results depend on the processing

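The log2 fold-change of the family sum kept its sign. In the Hep3B pair it was -0.61 with total reads, -2.37 with total miRNA counts, -2.02 with TMM, -1.79 with DESeq2 size factors and -2.12 with miRNA counts without the 5 most abundant miRNAs, and in the Huh7 pair -2.66, -2.14, -2.34, -2.08 and -2.20. In the same order, 284, 47, 71, 96 and 70 miRNAs were called up and 21, 112, 76, 59 and 81 down in the Hep3B pair, and 24, 56, 40, 59 and 52 up and 132, 74, 90, 71 and 77 down in the Huh7 pair. The fold threshold alone gave 536 up and 98 down for Hep3B-C against Hep3B, and 112 up and 322 down for Huh7-C against Huh7. Counting the observed value in the upper tail of the Poisson test, chosen after seeing the data, gave 275 up in the Hep3B pair.

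For the Huh7 lines against the Hep3B lines, 43 miRNAs were higher and 43 lower. Total reads gave 21 and 31, total miRNA counts 51 and 141, DESeq2 61 and 73, and DESeq2 size factors in edgeR 57 and 73. Leaving out each library in turn, without the block, gave between 11 and 53 higher and between 20 and 34 lower; the lone library left in a group is assumed to vary like the others. Without Huh7-C these were 11 and 20, and without Huh7 12 and 32. For hsa-miR-29c the log2 fold-change turned to -0.54 with total miRNA counts, -0.14 without cell state as a block, -1.01 without Hep3B-C and -0.52 without Huh7 (1.51 without Hep3B), and for hsa-miR-29b-2* to -0.17 with total miRNA counts. The other strands kept their direction. Beside DESeq2, hsa-miR-29a* was called with total miRNA counts (edgeR adjusted p = 0.00240), DESeq2 size factors (0.0277) and without the block (0.0434). Hsa-miR-29b-1* was called with total miRNA counts (edgeR adjusted p = 0.00445) and without the block (0.0450). Of all 443 miRNAs, 51 were higher and 141 lower with total miRNA counts, and 57 and 73 with DESeq2 size factors. Without the block 61 miRNAs were higher and 64 lower. These calls are thus given for scale only. Leaving out each library in turn, the log2 fold-change ranged from 0.59 to 3.06 for hsa-miR-29a. It ranged from 2.29 to 4.94 for hsa-miR-29a* and from 2.58 to 4.47 for hsa-miR-29b-1*.

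For HCSCs against HCC cells over both lines, edgeR called 0 higher and 0 lower, DESeq2 4 and 1, total miRNA counts 4 and 4, and DESeq2 size factors in edgeR 1 and 0. Leaving out each library gave 0 and 0. Leaving out hsa-miR-29c moved the share of hsa-miR-29a to between 82.6% (Hep3B-C) and 89.1% (Hep3B). The cause of these changes was not tested. The passengers rest on as few as 3 counts in a library and hsa-miR-29c on 33, which limits their precision.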
